A study of Mus musculus with 24 samples.

Results

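The genes described here encode the proteins of the cytosolic ribosome in cultured mouse whisker follicles. Members were all genes whose name in the array files is Rpl or Rps followed by digits and at most one of the letters a, x, y or l, together with Rpsa, Rplp0, Rplp1 and Rplp2. Pseudogene names and the Rps6k kinases were left out. This gave 82 of the 36610 genes and transcripts on the array, measured by 182 of 56605 probes. The probe with the highest mean signal stood for a gene. Of the members, 81 passed the filter on dim probes and 80 were well above background on all 24 arrays. Rpl10l, a paralog made mainly in testis, was not well above background on any array and is not tested here. The 81 tested members were 49 genes of the large subunit and 32 of the small subunit.

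Vibrissa follicles of B6C3F1 mice on postnatal day 9 were cultured for 24 hours in RPMI medium with fetal bovine serum. Panthenyl ethyl ether (PEE) was used at 0.3%. Pyridoxine hydrochloride, a form of vitamin B6 (PH), was used at 0.015%, and tocopherol acetate, an ester of vitamin E (TA), at 0.024%. The 7 treated groups were PEE, PH, TA, PEE-PH, PEE-TA, PH-TA and PEE-PH-TA, with the same doses in mixtures, and the control group had none of the compounds. Each sample pooled RNA of 10 follicles, and each of the 8 groups had 3 samples from independent experiments, each on 1 array. A whole follicle holds epithelium, dermis, vessels, nerve and pigment cells, so fewer cells of a type and less RNA per cell cannot be told apart in these values.

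A ribosome joins a small subunit, which reads the mRNA, and a large subunit, which forms the peptide bond. Each subunit holds many different proteins, and their mRNAs are among the most abundant of any cell. In mammals these mRNAs begin at a cytosine followed by a run of pyrimidines, the terminal oligopyrimidine motif, through which mTORC1 controls how much of each mRNA is translated. Hair matrix cells divide fast and make large amounts of keratin, and mutations of several ribosomal protein genes in mice darken the skin or hair or change the coat.

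The starts of 6 member genes are shown because these genes moved unequally with PH-TA. Relative to the median of the members, Rps7, Rpl13a and Rpl11 were called lower there and Rpl28, Rps6 and Rpl18 higher. These 6 genes were chosen after their values were seen. They are not the 6 that moved most, although Rps7 had one of the largest falls. Leaving out 1 array ended the call of Rpl13a for 5 of 6 arrays, of Rps6 for 4 and of Rpl18 for 3. The calls of Rps6 and Rpl18 also ended with quantile normalization. Each line gives 20 bases before and 20 bases from the start, 5′ to 3′ on the strand of the gene, from RefSeq promoters on build GRCm38.p6. Capitals mark the first cytosine followed by at least 4 pyrimidines from 5 bases before the start onwards.
Rps7 (chr12:28635934-28635973, minus strand): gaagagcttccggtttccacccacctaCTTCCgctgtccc
Rpl13a (chr7:45128726-45128765, minus strand): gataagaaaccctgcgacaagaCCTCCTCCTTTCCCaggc
Rpl11 (chr4:136053374-136053413, minus strand): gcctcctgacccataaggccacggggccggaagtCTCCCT
Rpl28 (chr7:4792945-4792984, plus strand): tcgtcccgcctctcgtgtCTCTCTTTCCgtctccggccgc
Rps6 (chr4:86857348-86857387, minus strand): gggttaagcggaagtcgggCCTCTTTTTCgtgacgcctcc
Rpl18 (chr7:45718051-45718090, plus strand): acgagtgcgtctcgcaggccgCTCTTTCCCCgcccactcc
All 6 hold such a run within the bases shown. That window is wider than those counted below, and no share of all starts was taken for it. The marked runs of Rps7 and Rpl11 begin more than 5 bases after the start. The RefSeq table had 73 starts for 61 members. A cytosine followed by at least 4 pyrimidines, searched on the gene's strand only, stood exactly at the start in 14 of these 73 (19.2%) and in 2.51% of all 32851 starts. Allowing 5 bases either side, 42.5% of the members' starts and 18.3% of all starts held one. A match is a description of the letters and does not show where transcription starts in these follicles.

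The probes are also shown, because probes of 1 gene did not always move together. Each probe has 60 bases, given 5′ to 3′ as in the deposited files in lower case, with its position on build NCBI37 (mm9). For Rps12, Rpl6 and Rpl10 the brightest and the faintest tested probe are given, and for Rps7 and Rpl9 the brightest.
Rps12 bright probe (chr10:23505428-23505711, minus strand): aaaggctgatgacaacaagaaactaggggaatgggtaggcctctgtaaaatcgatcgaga
Rps12 faint probe (chr10:23506043-23506102, minus strand): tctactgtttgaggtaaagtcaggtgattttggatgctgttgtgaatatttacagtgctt
Rpl6 bright probe (chr5:121658582-121658847, plus strand): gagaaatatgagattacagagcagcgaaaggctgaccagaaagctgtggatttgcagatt
Rpl6 faint probe (chr5:121655179-121655238, plus strand): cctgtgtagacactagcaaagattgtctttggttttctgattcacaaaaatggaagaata
Rpl10 bright probe (chrX:71518307-71518366, plus strand): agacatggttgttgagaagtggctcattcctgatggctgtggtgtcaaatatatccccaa
Rpl10 faint probe (chrX:71517954-71518013, plus strand): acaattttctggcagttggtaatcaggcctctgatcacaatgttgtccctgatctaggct
Rps7 bright probe (chr12:29319087-29319146, minus strand): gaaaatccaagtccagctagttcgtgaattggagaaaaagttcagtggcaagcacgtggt
Rpl9 bright probe (chr5:65779821-65779879, minus strand): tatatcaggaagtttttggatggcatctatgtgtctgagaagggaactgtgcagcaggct
The bright probes of Rps12 and Rpl6 span more than 60 bases of genome, so their parts are separated by a gap there, whereas the faint probes of Rps12, Rpl6 and Rpl10 are unbroken in the genome. Of the 175 tested member probes, 47 had such a gap. Ribosomal protein genes have many near-identical processed pseudogenes, and 7 probes of 4 members were listed on another chromosome than RefSeq gives the gene. For Rps27 and Rps29 this holds for the probe used. What those probes measure is therefore uncertain.

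The arrays had no saturated spot, and the array 75th percentile of signal was 142 to 147 with PEE, 199 to 217 with PEE-PH, 203 to 248 with PH-TA and 155 to 190 in control. The share of spots well above background ran from 58.3% to 62.5% over the arrays. Levels are given as log2 signal above the 75th percentile of the same array, and every difference below is in log2 units. Of the members, 71 had a mean level of at least 7 on this scale, as did 338 of the other genes. The probe used for Rpl37 read only -4.87 to -4.03 and that for Rpl30 1.55 to 1.93. The members' median on an array was 7.75 to 8.16. What the Rpl37 and Rpl30 probes measure is therefore uncertain. Of the members' probes, 64 had 10 spots on an array, and a median SD of 0.0352 between those spots. A member was called where limma's p, adjusted by Benjamini-Hochberg over 22065 genes, was below 0.05. How bright probes compare between arrays depends on the scaling, so values after quantile normalization are given beside the main ones.

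With 1 compound at most 1 ribosomal protein gene was called against control. PEE gave no call (background 10.9% of all genes in either direction), with 4 members at an unadjusted p below 0.05 and a median change of 0.04. TA gave no call (background 1.83%), with 16 members at an unadjusted p below 0.05 and a median of -0.08. PH gave 1 call, Rps14, which was lower (background 3.65% lower), with a median of -0.07. That call was lost without control replicate 2 or 3 or PH replicate 2 or 3. After quantile normalization none of the 3 compounds gave a limma call among the members (backgrounds 11.4% with PEE, 5.18% with PH and 1.84% with TA), with 1, 12 and 14 members at an unadjusted p below 0.05.

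With 2 compounds many members were lower on the scale of the 75th percentile but not after quantile normalization or spike-in scaling. On the first scale PEE-PH lowered 55 of 81 members (background 20.9% of all genes lower) and PH-TA lowered 58 (background 17.5%). PEE-TA lowered 21 (background 15.3%). None was higher in any of the 3, where the backgrounds were 14.9% (PEE-PH), 10.2% (PEE-TA) and 12.1% (PH-TA). The PEE-TA count rested on single arrays: it was 3 without PEE-TA replicate 2, 6 without PEE-TA replicate 3, 7 without control replicate 2 and 4 without control replicate 3. PEE-PH moved the median member by -0.22, PEE-TA by -0.11 and PH-TA by -0.23, beside -0.06, -0.05 and -0.06 over all genes. Genes of both subunits were among the called: with PEE-PH 28 of 49 large and 27 of 32 small subunit genes were called lower, with medians of -0.21 and -0.23.

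This common fall went with the scaling. Quantile normalization gives every array the same set of signal values. It can therefore remove a shift shared by the brightest genes, so medians after it cannot show whether the members fell together. After quantile normalization PEE-PH gave 8 members higher and 10 lower (backgrounds 19.2% and 15.8%), PEE-TA 4 and 6 (12.8% and 11.7%) and PH-TA 5 and 11 (15.8% and 12.6%), with medians of 0.00, 0.01 and 0.03. Scaled to the array median, PEE-PH gave 6 higher and 4 lower (backgrounds 33.4% and 9.08%), PEE-TA 19 higher and 1 lower (29.8% and 6.21%), and PH-TA 2 higher and 12 lower (27.7% and 6.8%). Scaled to the spike-in control RNAs, PEE-PH gave 22 members higher and 1 lower (backgrounds 45.9% and 5.66%) and PH-TA 19 and 2 (45% and 2.98%). Other bright genes had medians close to those of the members. The 338 genes of a mean level of at least 7 had a median of -0.23 with PEE-PH and -0.25 with PH-TA, against -0.24 for the 71 members of that brightness in both. Of those other genes 59.5% were called lower with PEE-PH and 58.9% with PH-TA, while of the bright members 73.2% and 76.1% were. The 75th percentile of signal was higher on every PEE-PH and PH-TA array than on any control array. With the log2 75th percentile as a covariate, PEE-PH gave 9 calls and PEE-TA 2, all lower and all among those called without it, while PH-TA gave 0.

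**Figure D1:**
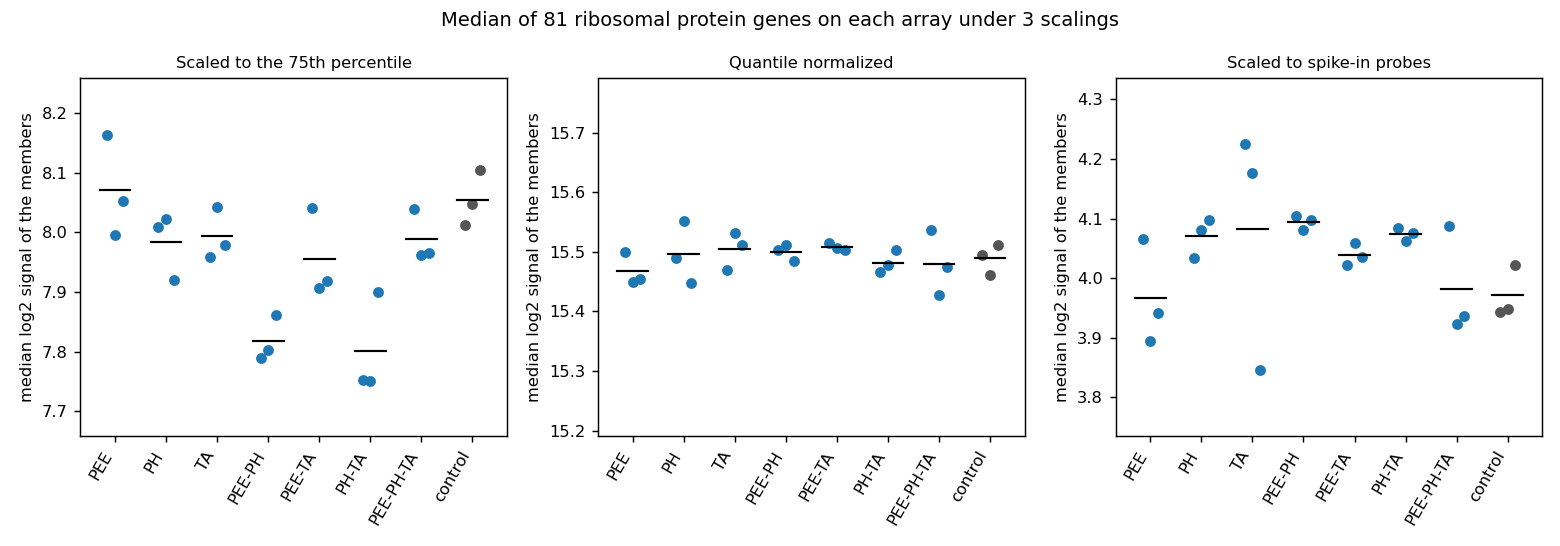
Median log2 signal of the 81 members on each of the 24 arrays (points) with the mean of each group (line), under 3 scalings, on vertical axes of equal length. Scaled to the 75th percentile the 3 PEE-PH and 3 PH-TA arrays lie at 7.75 to 7.90, below the 3 control arrays at 8.01 to 8.10. After quantile normalization the groups overlap, and scaled to the spike-ins PEE-PH and PH-TA lie above control.

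**Figure D2:**
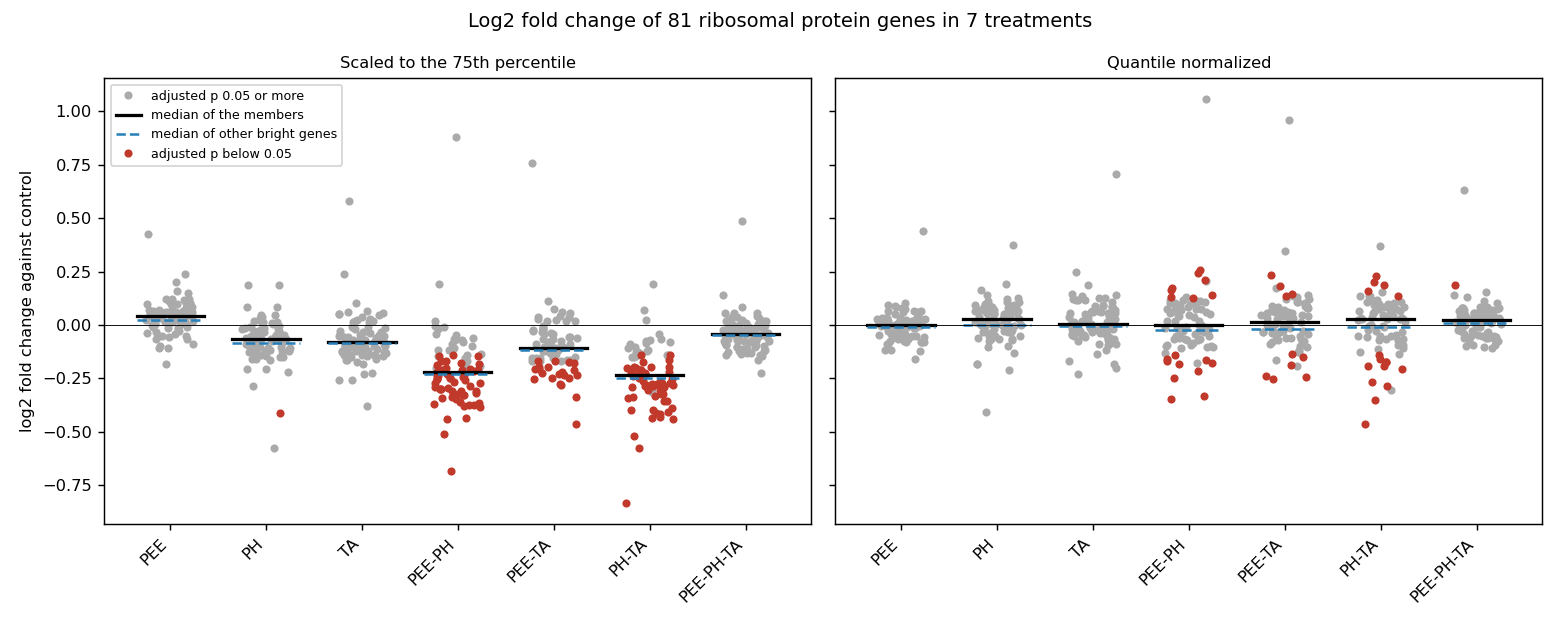
Log2 fold change of each of the 81 members against control in 7 treatments, scaled to the 75th percentile (left) and after quantile normalization (right). Red points passed an adjusted p of 0.05, the black line is the median of the members and the dashed line the median of the 338 other bright genes. On the left the median is -0.22 with PEE-PH and -0.23 with PH-TA, and on the right 0.00 and 0.03.

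With all 3 compounds the members were near control again. PEE-PH-TA gave no call under the main scaling (background 16.5%), with 7 members at an unadjusted p below 0.05 and a median of -0.04. After quantile normalization Rpl23a, a large subunit protein, was the only member called, and it was higher, by 0.19 (limma adjusted p = 0.0208, background 9.2%). Whether a mixture departed from the sum of its parts was tested for all 4 mixtures, and no member was called in any by limma, where the backgrounds were 0% of all genes (PEE-PH), 0.068% (PEE-TA), 0.0136% (PH-TA) and 0% (PEE-PH-TA). At an unadjusted p below 0.05 there were 47 members for PEE-PH, beside 11.2% of all genes. For PEE-TA, PH-TA and PEE-PH-TA there were 2, 7 and 1, beside 8.36%, 6.68% and 5.92% of all genes. Normexp background correction gave 5 members below the sum with PEE-PH, and unscaled signals gave 13 above it. Averaged over the 4 pairs of groups that differ in 1 compound, PH lowered 56 members and raised 1 (backgrounds 17.4% lower and 13.9% higher), TA lowered 8 (5.2%) and PEE lowered 1 (14.2%). For the average PH effect quantile normalization gave 6 higher and 9 lower (17.7% and 12.7%), and unscaled signals 45 higher and 1 lower.

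Rps14, a protein of the small subunit platform whose loss in people gives an anaemia of bone marrow, had the largest called change in each of the 3 mixtures of 2 compounds. Its level was 8.69, 8.77 and 8.97 with PEE-PH. PEE-TA arrays read 9.20, 8.88 and 9.00 and PH-TA arrays 8.58, 8.56 and 8.84, against 9.33, 9.51 and 9.64 in control. All 9 arrays of these mixtures lay below every control array. The change was -0.68 ± 0.10 (SE, n = 3 arrays a group, limma adjusted p = 6.67e-05) with PEE-PH. It was -0.46 ± 0.10 (limma adjusted p = 0.00313) for PEE-TA and -0.84 ± 0.10 (limma adjusted p = 6.42e-05) for PH-TA. After quantile normalization it was -0.35, -0.24 and -0.46, still called in all 3. With PH alone it was 9.21, 9.06 and 8.98, again below every control array. That change was -0.41 ± 0.10 (adjusted p = 0.0263 by limma), but -0.18 (adjusted p = 0.168) after quantile normalization. With PEE-PH-TA the change was -0.22 ± 0.10 (adjusted p = 0.147).

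Rps7, a small subunit protein that can bind Mdm2 and whose mouse mutants have white belly spots, came next. It read 6.50, 6.64 and 6.71 with PEE-PH, 6.38, 6.54 and 6.73 with PH-TA, and 7.06, 7.13 and 7.20 in control, with no overlap. The changes were -0.51 ± 0.09 (limma adjusted p = 0.000406) and -0.58 ± 0.09 (adjusted p = 0.00038), and -0.33 and -0.35 after quantile normalization. Rpl9, a large subunit protein, had 7.52, 7.59 and 7.63 with PEE-PH, 7.40, 7.46 and 7.63 with PH-TA, and 7.91, 8.03 and 8.11 in control. Its changes were -0.43 ± 0.07 and -0.52 ± 0.07 (limma adjusted p = 0.000147 and 0.000124), and it too stayed called after quantile normalization, at -0.25 and -0.28. The other leading falls were Rpl11 and Rps23 with PEE-PH (-0.44 and -0.38), Rps7, Rpl11, Rpl9 and Rpl13a with PEE-TA (-0.34, -0.28, -0.28 and -0.26), and Rpl13a and Rpl11 with PH-TA (both -0.44).

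Rpl6 and Rpl28, both of the large subunit, lay within 0.07 of control with PEE-PH and PH-TA on the same scale. Rpl6 read 7.19, 7.18 and 7.17 with PEE-PH, 7.18, 7.19 and 7.20 with PH-TA, and 7.19, 7.16 and 7.14 in control. Rpl28 read 8.21, 8.17 and 8.24 with PEE-PH, 8.14, 8.09 and 8.19 with PH-TA, and 8.21, 8.22 and 8.20 in control. Their changes there lay between -0.07 and 0.03, with none called. After quantile normalization both were called higher, Rpl6 by 0.18 with PEE-PH and 0.23 with PH-TA, and Rpl28 by 0.26 and 0.20.

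**Figure D3:**
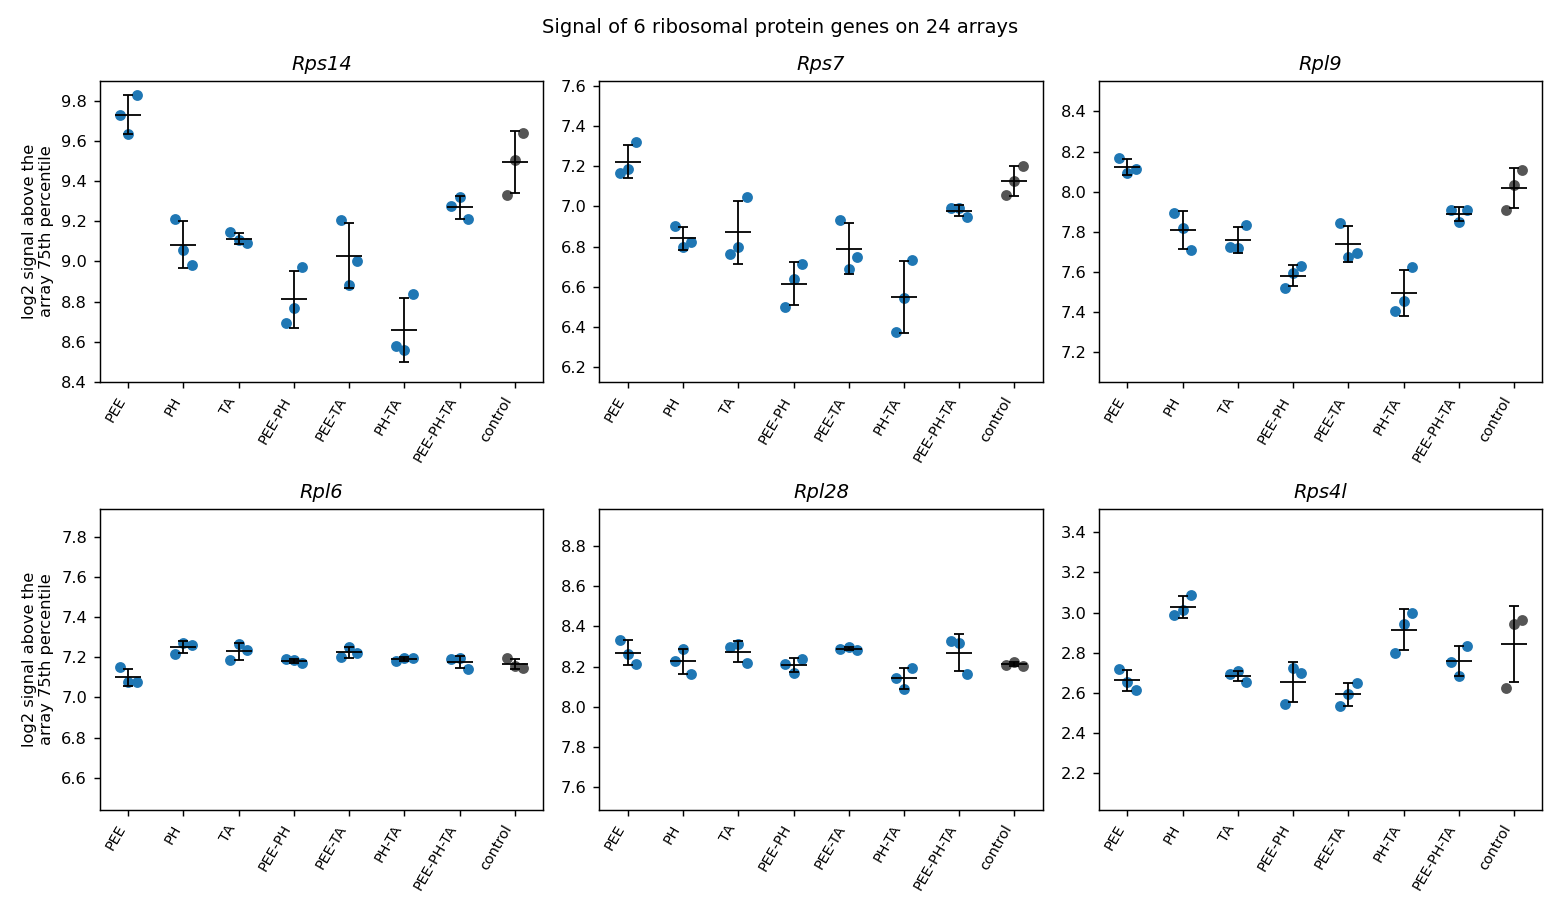
Log2 signal above the array 75th percentile of 6 members on 24 arrays (points) with the mean and SD of each group of 3, on vertical axes of equal length. Rps14, Rps7 and Rpl9 are lower with PEE-PH and PH-TA than in control. Rpl6 and Rpl28 stay near the control level there and were called higher after quantile normalization. Rps4l averages lower over the groups with PEE.

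By role, the 3 proteins of the stalk that recruits elongation factors (Rplp0, Rplp1, Rplp2) gave 2, 1 and 3 calls lower (PEE-PH, PEE-TA, PH-TA), and no call in any after quantile normalization. Rpl5 and Rpl11, which bind the smallest ribosomal RNA and, when free, Mdm2, were both lower in all 3 mixtures of 2 compounds, also after quantile normalization. Rpl5 changed by -0.33, -0.21 and -0.40 with PEE-PH, PEE-TA and PH-TA (SE 0.06, limma adjusted p = 0.000282, 0.013 and 0.000209). Of 8 members listed for a skin, hair, pigment or skeletal phenotype of mutants, 4 were lower with PEE-PH and 4 with PH-TA. Their medians were -0.15 and -0.18, where 20.9% and 17.5% of all genes were lower. After quantile normalization 1 was higher and 1 lower with PEE-PH, and 1 lower with PH-TA (15.8% and 12.6% of all genes lower). Rps7, Rps20, Rps19 and Rpl38 were the ones called on the first scale, at -0.51, -0.27, -0.18 and -0.24 with PEE-PH. Rps6, the substrate of S6 kinase, and Rpl24, mutated in the Belly spot and tail mouse, had -0.04 and -0.06 there and were not called. Rpl21 (-0.09) and Rpl27a (-0.12) were not called either.

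Of 10 members with other known roles, 7 were lower with PEE-PH and 7 with PH-TA (the same backgrounds of 20.9% and 17.5%), and after quantile normalization 3 were lower in each (15.8% and 12.6%), beside 2 higher with PEE-PH. Besides Rps14 the called ones were Rpsa, the laminin receptor precursor (-0.37 with PEE-PH), Rpl13a, part of the interferon-induced translation block (-0.38), Rps3, also a DNA repair endonuclease (-0.36), and Rps27a, made as a fusion with ubiquitin (-0.31). Rpl22, which represses its paralog Rpl22l1 in mice, changed by -0.29, and Rpl3, at the peptidyl transferase centre, by -0.25. Rpl10, which ends large subunit maturation, and Rps4x, the X-linked form of Rps4, had -0.08 and -0.07 and were not called. The paralogs of restricted expression went several ways. Rps27l, a p53 target, was lower with PEE-PH, PEE-TA and PH-TA (-0.33, -0.23 and -0.41). Rpl3l, the form of striated muscle, had 0.88 ± 0.46 with PEE-PH (limma adjusted p = 0.144), the highest value of any member there, and Rpl39l, made mainly in testis, had 0.19. Neither was called in any comparison with control. Rpl3l had a low signal, at -3.49, -4.02 and -4.22 in control and from -5.48 to -3.44 with PH, so the size of its change is uncertain.

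The differences among members were measured relative to the median of the members on the same array, a choice made after seeing the data. On this scale a value shows unequal change only. With PEE-PH 11 members were higher than the median and 5 lower (backgrounds 34.9% and 8.57%), with PEE-TA 1 and 3 (14.1% and 8.91%), and with PH-TA 10 and 7 (36% and 5.44%). Rps14 was lower in all 3, at -0.45 ± 0.08, -0.37 ± 0.08 and -0.58 ± 0.08 (limma adjusted p = 0.00031, 0.00388 and 0.000113), and its call survived leaving out any 1 array. The PEE-TA call of Rps14 was lost without either of 2 replicate numbers, with an adjusted p of up to 0.18, and in the authors' deposited table (adjusted p = 0.0548). Rpl9 (-0.20, -0.18 and -0.27) and Rpl11 (-0.20, -0.18 and -0.18) were also lower in all 3, and Rps7 in PEE-PH and PH-TA (-0.27 and -0.32). The PEE-TA calls of Rpl9 and Rpl11 each rested on single arrays: leaving out any of 4 of the 6 arrays ended them, with limma adjusted p of up to 0.114 and 0.119. Under normexp those 2 had an adjusted p of 0.11 and 0.163, and values of 0.0945 and 0.256 came from the authors' deposited table. For Rpl11 1 array left out ended the call with PEE-PH and 1 with PH-TA (limma adjusted p up to 0.0526 and 0.0699), and for Rps7 1 with PEE-PH (0.0713).

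On the other side stood Rpl6, at 0.25 ± 0.06 with PEE-PH and 0.28 ± 0.06 with PH-TA (limma adjusted p = 0.00384 and 0.00254), Rpl28 (0.23 and 0.18) and Rpl23a (0.23 and 0.21). Leaving out either of 2 arrays ended the call of Rpl28 with PH-TA (limma adjusted p up to 0.0905). Leaving out a whole replicate number, which leaves 2 arrays a group, ended more calls. Most PEE-PH and PH-TA calls ended whichever number was left out, among them Rpl28 and Rpl9 (PEE-PH) and Rpl23a, Rpl28 and Rpl11 (PH-TA). Their highest limma adjusted p were 0.0673, 0.124, 0.113, 0.156 and 0.225. The PEE-TA calls of Rpl11 and Rpl9 also ended for every number (limma adjusted p up to 0.302 and 0.341). Those of Rps7 and Rpl11 with PEE-PH and of Rps7 with PH-TA each ended for 2 numbers. The calls of Rpl6 with PEE-PH and PH-TA each ended for 1 number (limma adjusted p up to 0.0965 and 0.102). Rps14 kept its calls in these 2 mixtures. Within the 3 slides, which each held 1 array of every group, Rps14 was at -0.42, -0.49 and -0.43 with PEE-PH and -0.50, -0.65 and -0.60 with PH-TA. Rpl6 was at 0.22, 0.27 and 0.27 with PEE-PH and 0.25, 0.33 and 0.26 with PH-TA. Rps14 lay below and Rpl6 above the members' median change on every slide. With the log2 75th percentile of the array as a covariate, PEE-PH and PH-TA gave 0 calls by limma on this scale, with Rps14 at an adjusted p of 0.0658 and 0.144, and PEE-TA gave 1, Rps14 (adjusted p = 0.0271). The array signal and the mixtures of 2 compounds moved together, and the part of the first in these differences was not tested beyond that fit.

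**Figure D4:**
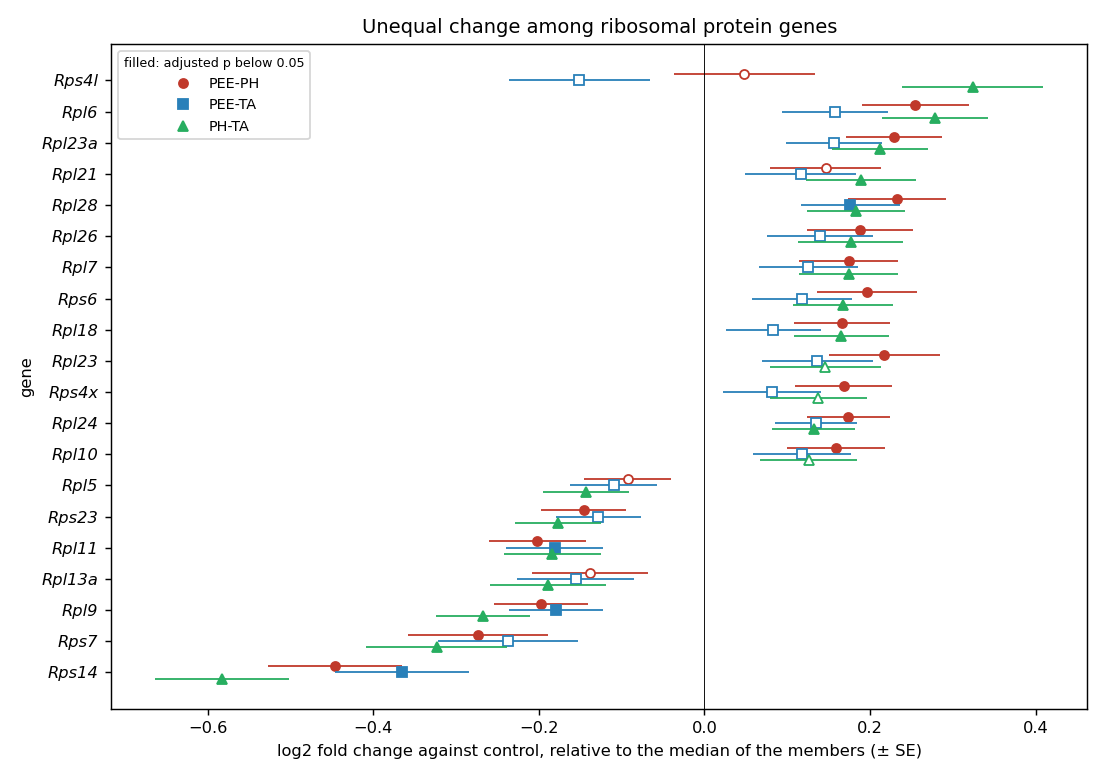
Log2 fold change against control of 20 members relative to the median of all members, with PEE-PH, PEE-TA and PH-TA (points ± SE from limma, filled where the adjusted p was below 0.05). Rps14 lies lowest, at -0.45, -0.37 and -0.58, and Rpl6 reaches 0.25 and 0.28 with PEE-PH and PH-TA. The values are differences among members and say nothing of the direction of the whole set.

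Probes of 1 gene were compared where several bright ones existed. In 55 members with more than 1 such probe (131 probes), all probes of the gene had the same sign in 48 members with PEE-PH and in 52 with PH-TA. The median range within a gene was 0.06 and 0.05.

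Rps4l was called for its average PEE and PH effects under every scaling tried. RefSeq lists it as a transcribed pseudogene on chromosome 6, related to Rps4x, so its signal is that of an RNA and not of a known protein. With PEE alone it read 2.72, 2.66 and 2.61. The mixtures that hold PEE read 2.54, 2.72, 2.70 (PEE-PH), 2.53, 2.59, 2.65 (PEE-TA) and 2.75, 2.69, 2.84 (PEE-PH-TA). In groups without PEE it read 2.99, 3.01 and 3.09 (PH), 2.69, 2.71 and 2.66 (TA), 2.80, 2.94 and 3.00 (PH-TA), and 2.62, 2.94 and 2.96 in control. The PH arrays and the third PH-TA array were the highest, and the first control array lay apart from the other control arrays, among the PEE values. Averaged over the pairs of groups PEE changed Rps4l by -0.20 ± 0.04 (limma adjusted p = 0.000998) and PH by 0.14 ± 0.04 (adjusted p = 0.0126). Both were called with quantile normalization (-0.21 and 0.14), spike-in scaling (-0.23 and 0.30) and no scaling (-0.28 and 0.37), and the PEE effect with the array signal as a covariate (-0.24), where the PH effect had an adjusted p of 0.0526. Without replicate number 2 the adjusted p was 0.0781 for PEE and 0.102 for PH, and without number 3 it was 0.116 for PH. The probe had 1 spot an array, and RNA of near-identical copies of Rps4x could add to its signal.

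Faint probes of the same genes gave changes of their own, whose difference from those of the bright probes was not tested. Signals of different probes cannot be compared as amounts of RNA, so only each probe's own change is given. Faint here means at least 16-fold dimmer than the brightest probe of the gene, a choice made after seeing the data, which 18 probes of 16 members met. Of these, 13 are assigned to an Ensembl transcript in the files, against 5 of the 157 bright probes. Bright is relative to the gene here, so the 157 include the dim probe of Rpl37. Of the faint probes 1 spans a gap in the genome, against 46 of the bright ones. What RNA they detect, such as a transcript with a retained intron, was not tested, since no genome is used here. A probe could pass the filter through a single group in which it was high, so it may lie near background in others. The faint probe of Rps13, for example, read down to -6.28 with PH-TA. The size of a change at such low levels is uncertain, and the part of the filter in the counts of faint probes was not tested.

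The faint probe of Rps12, a small subunit protein, read -4.18, -4.86 and -4.09 with PEE-PH, -3.97, -3.67 and -4.30 with PH-TA, and -2.83, -3.19 and -2.68 in control. Every array of both mixtures lay below every control array. The change was -1.48 ± 0.23 (limma adjusted p = 0.000137 over 33340 probes) with PEE-PH and -1.08 ± 0.23 (adjusted p = 0.00298) with PH-TA. The faint probe of Rpl6 read -1.44, -1.26 and -0.83 with PEE-PH, -1.39, -1.27 and -1.22 with PH-TA, and -0.74, -0.60 and -0.57 in control. That is a change of -0.54 ± 0.14 and -0.65 ± 0.14 (limma adjusted p = 0.00519 and 0.00219), while the brightest probe of Rpl6 had 0.02 and 0.03. The faintest probe of Rpl10 changed by -0.97 ± 0.19 and -0.78 ± 0.19 (limma adjusted p = 0.00068 and 0.00533). Other faint probes called in both were those of Rps24 (-0.70 and -1.04), Rpl7a (-0.67 and -0.84), Rpl12 (-0.49 and -0.75) and Rpl41 (-0.62 and -0.57), and 2 of Rps9. The faint probe of Rpl26 had 0.15 and 0.35 and the other faint probe of Rpl10 had 0.00 and -0.02, with neither called.

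In all, 12 of the 18 faint probes were lower with PEE-PH (background 21.5% of all probes). The count was 7 for PEE-TA (15.6%), 10 for PH-TA (17.5%), 4 for PH (4.36%) and 3 for PEE-PH-TA (9.6%), and none was higher in these. After quantile normalization 10, 5, 7, 4 and 1 were lower (backgrounds 15.8%, 11.2%, 12.7%, 3.09% and 7.95%). All 3121 faint probes on the array, chosen by the same rule, gave 30.9%, 23.8% and 25.6% lower in the 3 mixtures of 2 compounds under the main scaling. Their median was -0.21, -0.22 and -0.19, against -0.51, -0.34 and -0.53 for the members' faint probes. Scaled to the spike-ins 2 faint probes were lower and 1 higher with PEE-PH. With the array signal as a covariate 3 were called for PEE-PH, 2 for PEE-TA and 0 for PH-TA, all lower.

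**Figure D5:**
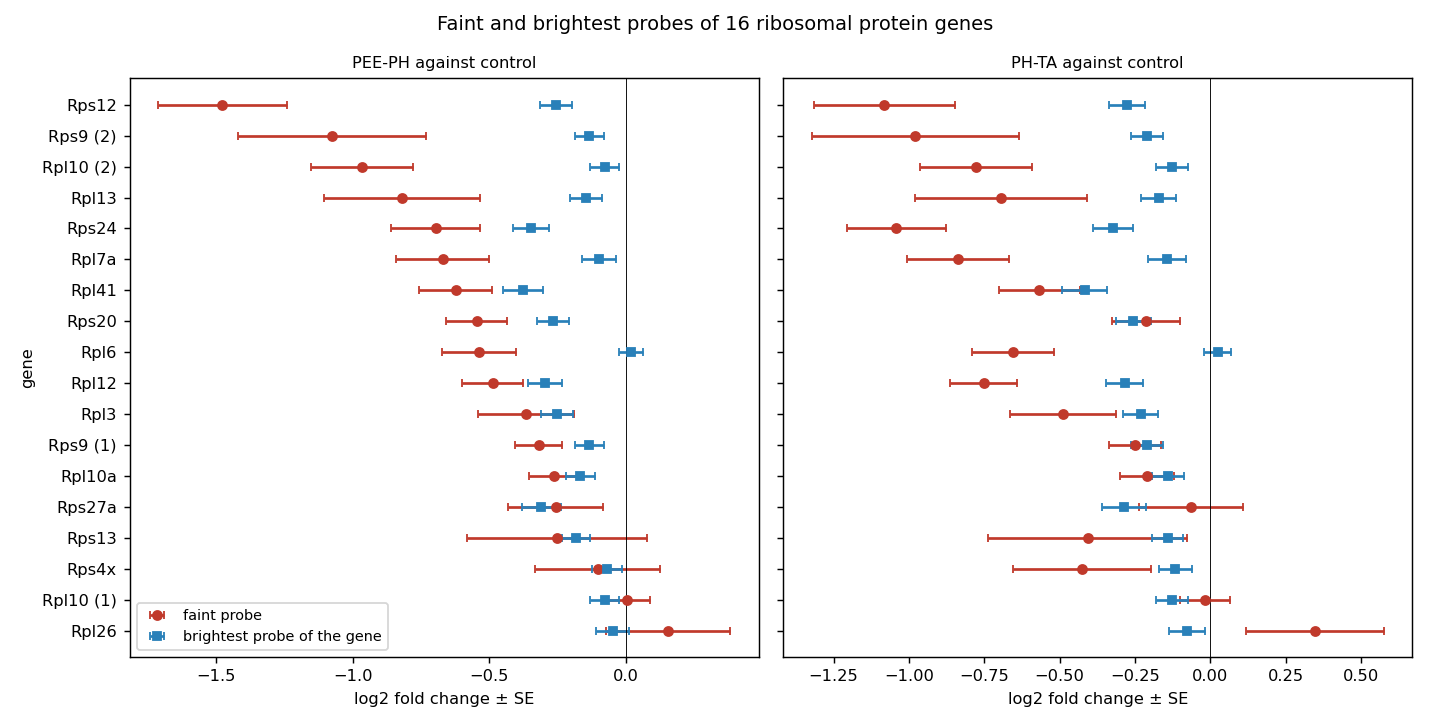
Log2 fold change ± SE (limma) of the 18 faint probes (red circles) and of the brightest probe of the same gene (blue squares) with PEE-PH and PH-TA against control. With PEE-PH 12 faint probes were called lower and none higher. The faint probe of Rps12 is at -1.48 and -1.08, and that of Rpl6 at -0.54 and -0.65 beside a brightest probe at 0.02 and 0.03.

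Of a list of 6 ribosomal proteins tested outside the name rule, all 6 were lower with PEE-PH and 5 with PH-TA (20.9% and 17.5% of all genes). Rpl22l1, the paralog of Rpl22, changed by -0.61 and -0.52, and Rack1, a signalling scaffold of the small subunit, by -0.46 and -0.47. After quantile normalization 3 were lower and 1 higher with PEE-PH and 2 and 1 with PH-TA, with Rpl22l1 at -0.46 and -0.33. Rps3a1 and Rpl37rt, whose names also fall outside the rule and which are on no list, were at -0.11 and -0.24 with PEE-PH and -0.11 and -0.22 with PH-TA. Rpl37rt was called lower in both (limma adjusted p = 0.0022 and 0.00616) and Rps3a1 in neither (0.155 and 0.159). After quantile normalization neither gene was called in either mixture. Of 77 mitochondrial ribosomal protein genes, which are not members, 39 were lower and 2 higher with PEE-PH and 30 and 1 with PH-TA (medians -0.17 and -0.15), and 28 and 21 were lower after quantile normalization. Over all genes 20.9% (PEE-PH) and 17.5% (PH-TA) were lower, and 15.8% and 12.6% after quantile normalization. Mrpl12 was at -0.60 and -0.61.

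Translation factors and other mRNAs with the pyrimidine start were mixed. Of 25, 7 were lower and 2 higher with PEE-PH and 6 and 2 with PH-TA, and after quantile normalization 2 were lower and 3 higher with PEE-PH and 2 and 5 with PH-TA. Over all genes 20.9% and 17.5% were lower on the first scale, and 15.8% and 12.6% after quantile normalization. Eif3h and Eef1b2 were at -0.41 and -0.41 with PEE-PH, and Eef2, the translocase, was at 0.25. Of 61 genes of ribosome assembly and rRNA synthesis, 16 (PEE), 20 (PEE-PH), 12 (PEE-TA), 8 (PH-TA) and 6 (PEE-PH-TA) were lower, and the only call higher in these was 1 with PH-TA. Beside this list, 20.9% (PEE-PH), 15.3% (PEE-TA) and 17.5% (PH-TA) of all genes were lower. With PEE and PEE-PH-TA 10.9% and 16.5% of all genes were called in either direction. With PEE the median was -0.17 in the assembly list, whereas the members' median was 0.04. Nop56, a core protein of the nucleolar complexes that methylate rRNA, was at -0.51 with PEE-PH, and Rrp1b at -0.49. Of 23 genes of mTORC1 and S6 kinase signalling 7 were higher and 2 lower with PEE-PH, beside 14.9% and 20.9% of all genes. Mtor and Rheb were at -0.70 and -0.55, and Ddit4 and Sesn3, which restrain mTORC1, at 1.15 and 0.81. Of 15 genes of p53 and ribosomal stress 10 were higher with PEE-PH and 1 lower, beside the same 14.9% and 20.9% of all genes. The lower one was the member Rps27l, and Trp53inp1 and Gadd45a were at 1.06 and 0.75. Sesn1 and Sesn2 are on both the mTORC1 and the p53 list. Counts for the assembly, mTORC1 and p53 lists are given on the first scale only.

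Markers of cell types moved with PEE-PH and PH-TA, and some also in other treated groups. Over all genes 14.9% were higher and 20.9% lower with PEE-PH, and 12.1% and 17.5% with PH-TA. Counts are on the scale of the 75th percentile unless quantile normalization is named, and most are given on that scale only. Proliferation genes were lower, 11 of 12 with PEE-PH and 8 of 12 with PH-TA, and their summed level, in units of the array 75th percentile, was 47.3 to 51.3 with PEE-PH, 55.4 to 65.4 with PH-TA and 78.1 to 83.5 in control. They were also lower with PEE (8 of 12) and PEE-PH-TA (9 of 12), where no member was called. The shares of all genes called there, in either direction, were 10.9% and 16.5%. Of 13 hair shaft keratins 2 were higher and 1 lower with PEE-PH and 6 higher with PH-TA, while after quantile normalization 4 (PEE-PH) and 10 (PH-TA) were higher and none lower, where 19.2% and 15.8% of all genes were higher. The keratins summed to 316 to 435 with PEE-PH, 391 to 506 with PH-TA and 202 to 333 in control. Of 7 inner root sheath markers 6 were higher in both mixtures, with sums of 893 to 939 (PEE-PH), 866 to 979 (PH-TA) and 492 to 661 (control). Their sums were 700 to 950 with PH, 725 to 957 with TA and 909 to 973 with PEE-TA. With PEE-PH-TA they were 835 to 871, and with PEE 437 to 603. Of 8 outer root sheath and epidermal markers 6 were lower with PEE-PH, and 4 lower and 2 higher with PH-TA, with sums of 1929 to 2046 (PEE-PH), 2064 to 2311 (PH-TA) and 2582 to 2700 (control). After quantile normalization 3 of these 8 were lower and 1 higher with PEE-PH and 3 were higher and none lower with PH-TA, where their median turned to 0.05, against -0.25 on the first scale. Outer root sheath and epidermal sums were also below control with PEE (2122 to 2476), PH (2306 to 2497) and TA (2260 to 2520). They were 1975 to 2280 with PEE-TA and 2201 to 2238 with PEE-PH-TA, again below control. Of 14 skeletal muscle markers 8 (PEE-PH) and 5 (PH-TA) were higher, with sums of 125 to 164 (PEE-PH), 98.3 to 111 (PH-TA) and 70.3 to 83.8 (control). Of 7 endothelial markers 7 (PEE-PH) and 6 (PH-TA) were higher, with sums of 19.3 to 23.9 (PEE-PH), 16.1 to 24.2 (PH-TA) and 12.3 to 13.9 (control). Of 5 erythroid markers 4 were lower in both (1 and 3 after quantile normalization), with sums of 1433 to 1673 (PEE-PH), 1294 to 1435 (PH-TA) and 1769 to 2123 (control). Of 5 mast cell markers 4 were lower and 1 higher in both, with sums of 16.8 to 21.2 (PEE-PH), 13.6 to 19.7 (PH-TA) and 23.1 to 38.2 (control). Of 9 macrophage markers 5 (PEE-PH) and 2 (PH-TA) were lower, with sums of 43.9 to 50.2 (PEE-PH), 40.2 to 47.0 (PH-TA) and 48.1 to 61.1 (control). Of 7 melanocyte markers 3 (PEE-PH) and 2 (PH-TA) were higher. Of 9 dermal papilla and fibroblast markers 1 was lower with PEE-PH and 3 were higher with PH-TA, and of 6 Schwann cell markers 1 was higher with PEE-PH. The part of these shifts in the change of the ribosomal protein genes was not tested.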

How the data were processed

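The deposited signal intensities of 24 arrays of 1 colour were read by the authors with Agilent Feature Extraction 12.0.3.1, per the submitters' processing notes. The labels name biotin, while the scans hold 1 green channel. The authors' deposited value table holds log2 values that match each array's own scan best. Its array medians lie between 3.97 and 4.05, and its normalization is not given in the sources used here. Processed signals were taken as log2 minus the 75th percentile of the array, outlier spots were left out, and spots of a probe were averaged. A probe was tested if all arrays of some group had it well above background (33340 probes, 22065 genes). Group means were fitted with limma 3.58.1 in R 4.3.3 (residual df 16, prior df 2.19), with Benjamini-Hochberg adjustment over all genes and a threshold of 0.05. There were 14 comparisons: 7 with control, 3 average effects and 4 departures from the sum of single compounds. The fit was tested on simulated data. The replicates of a group are independent experiments, per the series' design text, which gives no number to them, and p-values measure the spread between these samples. The number of arrays limits the precision. Members and gene lists were chosen with earlier results of these data known. Named were up to 5 members a direction and comparison by size among those called, members of the role lists, members going against most others or below background, and up to 2 genes a direction of other lists. Alternatives were the array median, quantile normalization, normexp (offset 50), the authors' table, no filter, all probes, a trended robust prior, an array signal covariate, the replicate number as a block and leaving out arrays. No scaling, the 7 brightest spike-in probes, the members' median and the faint probes were added after seeing the data. Replicate number is also the slide, per the file headers: same-numbered arrays deviated together only weakly, with a median correlation of 0.10 over 84 pairs (44 above 0.1) against -0.05 for different numbers, so the numbers were not taken as pairs.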

Additional observations from a re-analysis of the deposited data

How the results depend on the processing

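The scaling decided the direction and number of calls among the 81 members. Quantile normalization gave 0 calls with PH, 18 with PEE-PH, 10 with PEE-TA, 16 with PH-TA, 1 for PEE-PH-TA, and 2, 15 and 2 averaged for PEE, PH and TA. The authors' table gave 0, 13, 5, 15, 1, and 3, 13 and 2 for the same. Array median scaling called 20 with PEE-TA, 19 of them higher, and gave 1 with PEE, 6 with PH, 10 with PEE-PH, 14 with PH-TA, 8 with PEE-PH-TA (these 8 higher), and averages of 2, 13 and 13. Without scaling there were 22 with PEE (all lower), 0 with PH, 11 with PEE-PH, 1 with PEE-TA, 24 with PH-TA, 5 for average PEE, 24 for average TA and 13 for PEE-PH beyond the sum. Spike-in scaling gave 0 with PH, 23 with PEE-PH, 1 with PEE-TA, 21 with PH-TA, 18 for average PH and 1 for average TA. Relative to the members' own median there were 16 with PEE-PH, 4 with PEE-TA, 17 with PH-TA and 1 with PEE-PH-TA, with 3, 17 and 2 as averages. The array signal covariate gave 0 with PH, 9 with PEE-PH, 2 with PEE-TA, 0 with PH-TA, and 0 for average PH and TA. Normexp gave 2 with PEE, 1 with TA, 13 with PEE-TA, 2 and 36 for average PEE and PH, and 5 for PEE-PH beyond the sum. A trended robust prior gave 3 with PH, 3 with TA, 2 for average PEE and 14 for average TA. The mean of all probes gave 5 with PH, 1 with TA and 3 for average PEE, and no filter 11 with PEE-TA, 13 for average TA and 8 for PEE-PH beyond the sum. The cause was not tested.

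Relative to the members' median, quantile normalization called 9 with PEE-TA, normexp 15 with PEE-TA and 26 with PH-TA, the trended prior 11 and 29, and the covariate 0 (PEE-PH), 1 (PEE-TA), 0 (PH-TA) and 1 (average PH). Faint probes called were 16 with PH-TA under normexp, 3 and 6 with PEE-PH and PH-TA without scaling, 3 and 4 with PEE-PH and PEE-TA under spike-in scaling, and 3 for PEE-PH, 2 for PEE-TA and 0 for PH-TA under the covariate. Signs were followed for 28 fold changes of single genes only, so other members may have turned too. Among these 28, the sign turned for Rps18 in the average PH effect with quantile normalization (0.00671) and the authors' table (0.0256). Without scaling it turned for Rpl9 (0.00748), Rps18 (0.0144) and Rpl13a (0.028) in the average PH effect. Rpl13a (0.0128) and Rps27 (0.027) turned without scaling in the average TA effect.

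With the replicate number as a block the counts were 55 for PEE-PH, 20 for PEE-TA and 58 for PH-TA, and it moved no count by over 1.5 times. With single arrays or whole replicate numbers left out there were 0 to 1 with PEE, 0 to 2 with PH, 0 to 3 with TA, 13 to 58 with PEE-PH, 0 to 29 with PEE-TA, 10 to 60 with PH-TA, 0 to 2 with PEE-PH-TA, 0 to 3, 15 to 60 and 0 to 16 for average PEE, PH and TA, and 0 throughout for the 4 sums. Relative to the members' median the ranges were 1 to 19 for PEE-PH, 0 to 9 for PEE-TA, 1 to 18 for PH-TA and 3 to 19 for average PH. For faint probes they were 4 to 13 (PEE-PH), 2 to 10 (PEE-TA) and 4 to 9 (PH-TA). Leaving out a whole replicate number leaves 2 arrays a group, which gave the lowest counts: with 1 array left out the counts were 45 to 58 for PEE-PH and 44 to 60 for PH-TA.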
